A study of Rattus norvegicus with 232 samples.

Results

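The HXB and BXH strains are the reciprocal arms of a recombinant inbred family, bred by brother-sister mating from crosses between SHR/OlaIpcv, the spontaneously hypertensive rat, and BN-Lx/Cub, a Brown Norway congenic strain. Strains were assigned to a cross by the strain name in the labels, which put 20 strains with the suffix /Ipcv in HXB and 10 strains with the suffix /Cub in BXH. These 30 strains are 30 of the 74 strains of the Hybrid Rat Diversity Panel series and supplied 90 of its 232 samples, 60 from HXB and 30 from BXH. Every sample was rRNA-depleted total RNA from the whole brain of an untreated male, with 3 animals a strain, and by the study's methods the rats were young adults and a single hemisphere of each brain was sequenced. All HXB and BXH animals were bred from the same pair of progenitor strains, and each strain is a single inbred line, so that animals of a strain share a genotype and the strain was the unit of replication. The question addressed was whether brain RNA differed with the direction of the founding cross.

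By the usual naming convention the dam's strain comes first, which would give HXB strains the SHR mitochondrial genome and the BN-Lx Y chromosome, and BXH strains the reverse. The labels do not state this. The mitochondrial genome encodes ribosomal RNAs, transfer RNAs and a small set of respiratory chain subunits, is transcribed from both strands as long polycistronic RNAs that are cut into single transcripts, and passes through the mother only. Autosomes recombine freely in both crosses, so that in a large family the crosses would carry each progenitor's alleles at like frequencies, whereas the mitochondrial genome and the Y chromosome cannot be reshuffled.

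Levels were taken from 5 deposited gene tables on a log2 scale, in which 1 feature is 1 annotated or reconstructed gene. The version 7.1 table of RefSeq genes held 20859 features without spike-ins in 88 libraries of the family, with library medians between 8.237 and 8.4237. The reads behind each value are not in the tables, so sequencing depth is unknown. No 2 libraries held identical values. In the RefSeq table and in both tables of reconstructed genes each library was nearest to its own strain over the 500 features whose level differed most by strain. Those features were chosen by the same strain labels, so that this nearness is no independent check of them. In each Ensembl table, 2 libraries were nearer to another strain of the same cross (HXB2 animals 1 and 3 in version 6, HXB2 animal 3 and BXH12 animal 3 in version 5), and the results from those tables are given with and without them below. Neuron markers were high, with the mean level of 10 such markers between 13.082 and 13.313 over HXB strains and that of 5 pituitary markers between 4.39 and 5.127. The mean level of 10 liver markers ran from 8.357 to 10.736 over HXB strains. Ahsg of that list reached 14.865 in a single HXB library, beside a median of 7.981 over HXB strains, and the source of such values was not tested.

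Cross direction was bound up with the laboratory code of the strain name and largely with sequencing batch. The suffix and the cross coincide in all 30 strains and cannot be told apart, although by the study's methods the animals of both crosses and of both progenitors were kept at a single institute. In the RefSeq table, batch 3 held 13 BXH libraries and 0 HXB libraries, and batch 5 held 12 HXB libraries and 0 BXH libraries. Batch 2 held 14 HXB libraries and 1 BXH library, and batch 6 held 17 and 3. The reverse balance was seen in batch 7, with 2 HXB and 8 BXH libraries. No batch had an even share of the family, so most called differences described are given with batch in the fit, and within batches 6, 7 and 10, which hold at least 2 strains of each cross. By the labels, batches 7 and 10 share their HXB strains, and every BXH strain of batch 10 is also in batch 7, as other animals. The titles of these batch 10 libraries give batch 7, so values within batches 7 and 10 are not separate checks. Batches 1 and 2 hold a single BXH strain each and were not used for within-batch values. By the labels, most BN-Lx animals were in batch 3, the batch without HXB libraries. The progenitors are compared below without a batch term, so that strain and batch cannot be told apart there. In the RefSeq table each SHR animal was the mean of libraries from several batches, whereas most BN-Lx animals were a single library. The SDs of the progenitors there are thus of unlike units.

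No RefSeq gene was called between the crosses. With limma on strain means and Benjamini-Hochberg adjustment over all features, 0 of 20859 features (0%) were called at 5%, and 795 (3.81%) had an unadjusted p under 0.05, of which 419 (2.01%) were higher in HXB and 376 higher in BXH. In 0 features did the strain means of the crosses fail to overlap. The median difference over all features was 0.0054 log2 units, HXB minus BXH. With sequencing batch as a covariate over single libraries 349 features (1.67%) passed, 170 of them (0.815%) higher in HXB. That fit gives all genes 1 common within-strain correlation of 0.1724, and with the share of each strain's libraries in each batch as covariates of the strain means 0 features passed.

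The 10 genes of known symbol with the smallest p were named by rule, 5 in each direction, and each had an adjusted p of 1. Higher in HXB by this ranking were Fabp5, a fatty acid binding protein, Rps25 and Fau, which encode proteins of the small ribosomal subunit, Slc25a15, the mitochondrial ornithine carrier, and Stmn4, a stathmin that binds tubulin. Fabp5 ranged from 9.722 over a median of 9.977 to 10.291 in HXB strains and from 9.605 over 9.743 to 10.032 in BXH strains, a difference of 0.213 (SE 0.051). The ranges overlap over most of their length. Slc25a15 differed by 0.099 (SE 0.026), Stmn4 by 0.136 (SE 0.036) and Fau by 0.128 (SE 0.034). Lower in HXB were Akirin2, a nuclear protein (-0.111, SE 0.029), Pnrc1, a nuclear receptor coactivator (-0.113, SE 0.031), Cd200, the neuronal ligand of a microglial inhibitory receptor (-0.097, SE 0.026), Vps26b, a retromer subunit (-0.065, SE 0.018), and Dyrk1a, a protein kinase (-0.08, SE 0.022). These genes were picked by their p in the same libraries, so that passing a related fit is no independent support. All 10 passed with batch as a covariate, where most differences were close to double those above or larger, and 0 of 10 with batch shares of the strains. In these 2 fits Fabp5 stood at 0.422 and 0.39, Slc25a15 at 0.2 and 0.213, Stmn4 at 0.281 and 0.258, and Fau at 0.283 and 0.211. Akirin2 stood at -0.217 and -0.173, Pnrc1 at -0.234 and -0.131, Cd200 at -0.215 and -0.19, Vps26b at -0.127 and -0.129, and Dyrk1a at -0.141 and -0.11. Within batch 10, which holds 2 HXB and 3 BXH strains, Stmn4 was 0.022 lower in HXB.

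Rps25 showed the widest difference of these 10 genes, and its levels fell into clusters of strains. HXB strains ranged from 10.146 over a median of 11.925 to 12.167, and BXH strains from 9.943 over 10.805 to 12.418. A single HXB strain, HXB5, lay at the bottom of its cross, and BXH9 and BXH10 lay above every HXB strain. The difference was 0.861 (SE 0.211, limma adjusted p = 1). Strain identity accounted for most of the spread, with an intraclass correlation of 0.787, far above the common value used in the batch fit, in which the difference was 1.635 (adjusted p = 8.51e-09). With batch shares of the strains it was 1.967 (adjusted p = 0.147). BN-Lx averaged 12.34 ± 0.312 (SD, n = 3) and SHR 11.552 ± 0.153 (SD, n = 2), and they did not pass the test (limma adjusted p = 0.18 between them).

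LOC685085 on chromosome 4, which the reference table names as an Rps25-like gene, went the other way in the same strains. It was chosen after its values were seen. Strain means ran from 9.232 over a median of 9.677 to 11.367 in HXB and from 9.15 over 10.697 to 11.494 in BXH, a difference of -0.791 with an unadjusted limma p of 0.000449 and an adjusted p of 1. It was -1.571 with batch as a covariate (adjusted p = 3.47e-10) and -1.785 with batch shares (0.269). HXB5, the lowest HXB strain for Rps25, was the highest for LOC685085. Both levels are uncertain, since such copies can share reads. Whether reads were split between these loci was not tested.

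**Figure D1:**
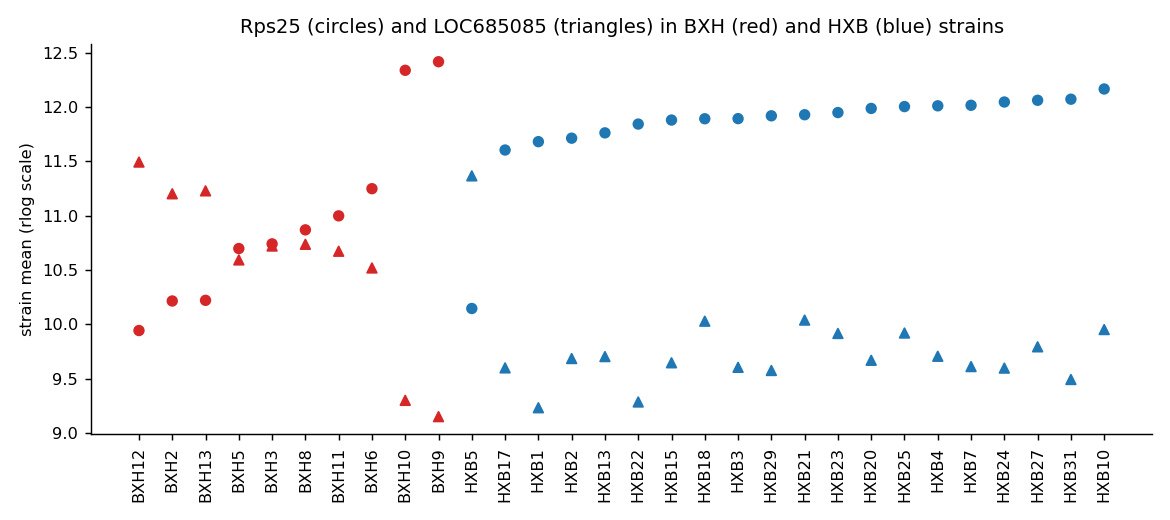
Strain means (log2 units, vertical axis) of Rps25 (circles) and LOC685085 (triangles) in each of the 10 BXH (red) and 20 HXB (blue) strains of the version 7.1 RefSeq table, ordered by Rps25 within a cross. HXB5 lies at 10.146 for Rps25, apart from the other HXB strains, BXH strains spread from 9.943 to 12.418, and strains low in Rps25 are high in LOC685085.

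Both mitochondrial ribosomal RNAs, the only mitochondrial features of the RefSeq table, were close in the crosses. mt-Rnr1, the small ribosomal RNA, had strain means of 20.995 to 21.667 in HXB (median 21.266) and 21.092 to 21.482 in BXH (median 21.338), and the difference was -0.013 (SE 0.079, limma adjusted p = 1; permutation p = 0.838 over strains). mt-Rnr2, the large ribosomal RNA, had strain means of 22.924 to 23.536 in HXB (median 23.25) and 23.229 to 23.548 in BXH (median 23.361). The BXH values lay at the upper end of the HXB range, with a difference of -0.12 (SE 0.107, limma adjusted p = 1, permutation p = 0.0545). Ribosomal RNA was depleted before sequencing, and the study's methods also describe removal of reads that aligned to ribosomal RNA. Whether reads were removed in this way for the RefSeq table is not stated. How far these steps acted on mt-Rnr1 and mt-Rnr2 was not tested, so their levels may not reflect those in the tissue.

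Y-linked genes of the RefSeq table were also close. None of 12 features was called, and 0 had an unadjusted limma p under 0.05. Kdm5d, a histone demethylase, averaged 10.601 ± 0.15 (SD, n = 20) in HXB and 10.586 ± 0.091 (SD, n = 10) in BXH strains. Eif2s3y, a translation initiation factor subunit, averaged 10.589 ± 0.183 and 10.548 ± 0.155, and Uty, a paralog of the X-linked demethylase Utx, 10.202 ± 0.177 and 10.184 ± 0.122. Ddx3y, Uba1y and Usp9y had differences of no more than 0.049 in size, at HXB means of 3.041, 2.618 and 5.179. The Y-linked features without a gene name had HXB means from 0.983 to 4.077. Only Kdm5d, Eif2s3y and Uty lay above the library medians, so that most of the 12 features were low. On the X chromosome 0 of 631 features were called, and 23 (3.65%) had an unadjusted p under 0.05 beside 755 of 18890 autosomal features (4%). With batch as a covariate 14 X-linked features (2.22%) passed, 2 of them higher in HXB, beside 323 autosomal features (1.71%).

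Mitochondrial features of the version 5 table of reconstructed genes gave a different picture. That table was built on rn6 from the study's own assembled transcripts and holds 99376 features, 41 of them on the mitochondrial genome. By the same fit 775 features (0.780%) were called, and 25 of the 41 mitochondrial features (61%) were among them, 16 higher in HXB, beside 0.458% of all features called in that direction, and 9 higher in BXH, beside 0.322%. By a permutation of cross labels over strains, 19 of the 41 had the smallest p that 100000 resamples can give (1e-05). In 11 features the strain means of the crosses did not overlap, beside 17 (0.0171%) in the whole table. With batch as a covariate 16 mitochondrial features passed beside 158 (0.159%) of all features, and with batch shares of the strains 10 passed beside 16 (0.0161%) of all features. Within batch 6 the direction of the 25 called features was kept in 24, within batch 7 in 20 and within batch 10 in 25. Batches 7 and 10 share strains, as given above.

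Of the 41 features, 15 have the ends of a known mitochondrial gene, and 6 of these 15 were called. Mt-nd6, Mt-co2, Mt-co3 and Mt-nd3 were higher in HXB, and Mt-co1 and the large ribosomal RNA were higher in BXH. Subunits of cytochrome c oxidase therefore stood on both sides, and the subunits of complex I Mt-nd1, Mt-nd2, Mt-nd4l, Mt-nd4 and Mt-nd5 were not called. The plot of differences by gene sets these 15 features beside the same genes in the Ensembl tables, where differences were smaller in size for Mt-nd6, Mt-co1 and Mt-co2.

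**Figure D2:**
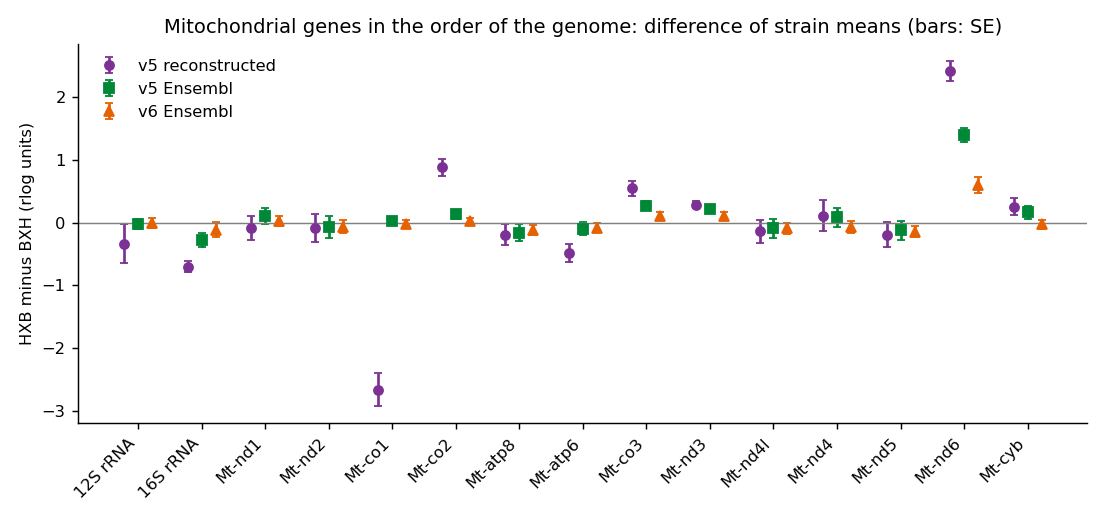
Difference between HXB and BXH strain means (log2 units, HXB minus BXH, vertical axis, with bars of 1 SE) for 15 mitochondrial genes in the order of the genome, in the version 5 reconstruction (circles) and the version 5 (squares) and version 6 (triangles) Ensembl tables. Mt-nd6 lies above 0 in each table, from 0.596 in version 6 to 2.419 in the version 5 reconstruction, whereas Mt-co1 lies at -2.666 in the reconstruction and near 0 in the Ensembl tables.

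Mt-nd6 encodes a subunit of complex I and is the protein gene of the strand opposite to the others. Its feature PRN6.5G0229703 covers MT:13543-14061 of rn6 on the minus strand. Strain means in HXB ran from 10.341 over a median of 11.3 to 11.802, and BXH strains from 8.077 over 8.846 to 9.271. Every HXB strain lay above every BXH strain. The difference was 2.419 (SE 0.155, limma adjusted p = 1.78e-12), with batch as a covariate 1.73, and with batch shares 1.909 (adjusted p = 0.00346). It was 1.958 within batch 6, 1.164 within batch 7, where strains overlapped, and 1.22 within batch 10. SHR averaged 11.554 ± 0.295 (SD, n = 3) and BN-Lx 9.461 ± 0.819 (SD, n = 3, limma adjusted p = 0.0327 between them, with no batch term). SHR was nearer the HXB mean (11.182) than the BXH mean (8.763). The BN-Lx mean was nearer that of BXH, but lay above every BXH strain.

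The Mt-nd6 difference had the same direction in every table that held the gene, at different sizes. These tables hold largely the same libraries, so that the shared direction is no independent support. In the version 5 Ensembl table, HXB strains ranged from 11.056 over a median of 11.764 to 12.321 and BXH strains from 10.042 over 10.331 to 10.559, again without overlap. The difference was 1.402 (SE 0.11, limma adjusted p = 1.01e-09), and 1.212 with batch shares (adjusted p = 0.0161). In the version 6 Ensembl table, HXB strains ranged from 10.477 over 11.443 to 11.695 and BXH strains from 10.122 over 10.706 to 11.419. These ranges overlap, and the difference of 0.596 (SE 0.129) was not called (limma adjusted p = 0.89, permutation p = 0.00026). With batch as a covariate the version 6 difference was 1.073 (adjusted p = 1.65e-04), and Mt-nd6 was the only 1 of 18644 genes (0.00536%) called there with batch shares, at 1.24 (adjusted p = 0.0417). In the version 7.1 reconstruction the feature of the same interval, PRN7.71G0261239, differed by 0.767 (SE 0.144, limma adjusted p = 0.307, permutation p = 8e-05). With batch as a covariate that difference was 1.301 (adjusted p = 2.1e-04), and with batch shares it was 1.379 (SE 0.371, adjusted p = 0.911). SHR averaged 12.509 and BN-Lx 10.697 in the version 5 Ensembl table (limma adjusted p = 0.00984 between them). The means were 11.758 and 11.177 in version 6 (adjusted p = 0.776) and 11.87 and 11.138 in the version 7.1 reconstruction (adjusted p = 0.293), where a BN-Lx animal at 11.805 lay above SHR animals at 11.75 and 11.748, so that the order of the progenitors did not pass the test in either. In both, BN-Lx was nearer the HXB mean (11.335 and 11.425) than the BXH mean (10.739 and 10.658).

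**Figure D3:**
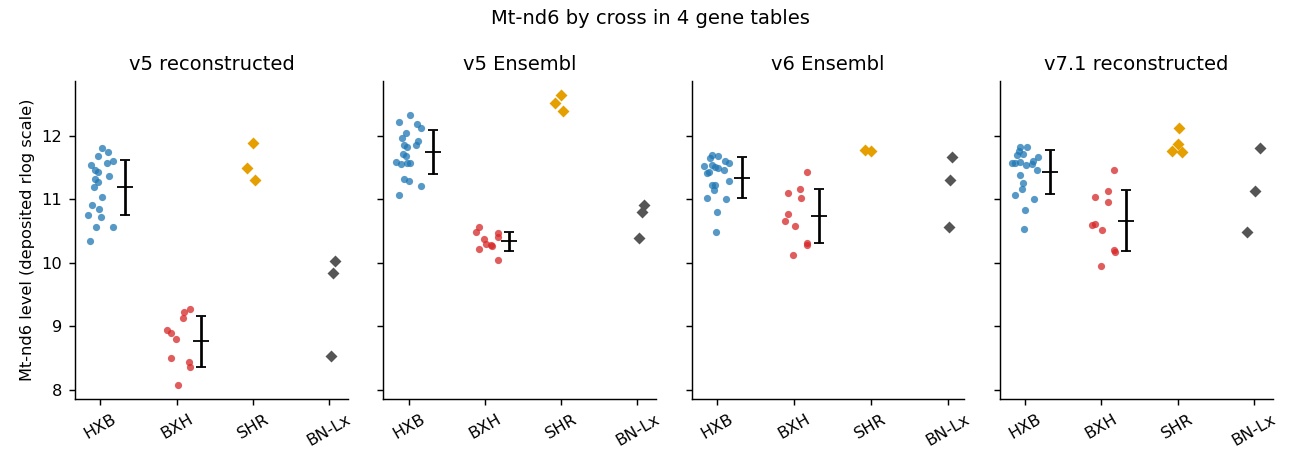
Mt-nd6 levels (log2 units, vertical axis) in 4 deposited tables, with strain means of the 20 HXB and 10 BXH strains as circles, their mean and SD as bars, and progenitor animals as diamonds. In both version 5 tables every HXB strain lies above every BXH strain, the lowest HXB and highest BXH values being 10.341 and 9.271 in the reconstruction and 11.056 and 10.559 by Ensembl annotation, and in the version 6 and version 7.1 tables the crosses overlap.

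Without the libraries nearer to another strain, Mt-nd6 differed by 1.422 (SE 0.109, limma adjusted p = 5.08e-10) in the version 5 Ensembl table and by 0.611 (SE 0.127, limma adjusted p = 0.645) in version 6.

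Mt-co1, which encodes the catalytic subunit of cytochrome c oxidase, was lower in HXB in the reconstruction (PRN6.5G0229694, MT:5323-6867, plus strand). In HXB the strains spanned 13.423 over a median of 14.955 to 16.205, and BXH strains from 17.156 over 17.563 to 17.95. No strain of one cross reached the other. The difference was -2.666 (SE 0.257, limma adjusted p = 5.36e-08), and -2.905 with batch as a covariate (adjusted p = 0.000346). With batch shares it was -3.087 (adjusted p = 0.00591). Within batches 6, 7 and 10 it was -1.14, -4.257 and -1.363. The same gene counted by its Ensembl annotation was not called, with differences of 0.02 in version 5 (limma adjusted p = 0.846) and -0.019 in version 6.

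The large ribosomal RNA (PRN6.5G0229687, MT:1094-2664) ranged from 21.913 over 22.553 to 22.859 in HXB and from 22.926 over 23.147 to 23.543 in BXH. The crosses did not overlap, and the difference was -0.706 (SE 0.09, limma adjusted p = 2.1e-05; -0.541 and 0.0438 with batch as a covariate; -0.616 and 0.596 with batch shares). Within batches 6, 7 and 10 it was -0.25, -0.797 and -0.322. The Ensembl feature of the same RNA (AY172581.24) differed by -0.279 in version 5 (limma adjusted p = 0.105, permutation p = 2e-05) and by -0.113 in version 6 (limma adjusted p = 1, permutation p = 0.0484). Mt-co2 differed by 0.88 (SE 0.135, limma adjusted p = 4.59e-04), Mt-co3 by 0.545 (SE 0.122, 0.0213) and Mt-nd3, of complex I, by 0.283 (SE 0.057, 0.00915). None of these 3 passed with batch as a covariate, in which Mt-co2 differed by 0.652 (adjusted p = 0.0768), Mt-co3 by 0.868 (0.0615) and Mt-nd3 by 0.207 (0.368), so that the difference of Mt-co3 was larger there. With batch shares they were 0.811, 1.012 and 0.315, at adjusted p values of 0.291, 0.239 and 0.702. Within batches 6, 7 and 10 Mt-co2 differed by 0.729, 0.736 and 0.425, Mt-co3 by 0.643, 0.026 and 0.469, and Mt-nd3 by 0.414, -0.005 and 0.331. Mt-co3 and Mt-nd3 were also called in the version 5 Ensembl table, at 0.271 and 0.222, where 13.4% of all genes were called. With differences of 0.1 and 0.101 they were not called in version 6. In the version 5 Ensembl table they did not pass with batch as a covariate, at 0.213 (adjusted p = 0.113) and 0.177 (0.18), or with batch shares, at 0.239 (0.439) and 0.284 (0.308). Mt-atp6, of the ATP synthase, had a difference of -0.485 that missed the threshold (PRN6.5G0229697, limma adjusted p = 0.0995), but passed with batch as a covariate at -0.653 (adjusted p = 0.0326), and with batch shares it was -0.633 (adjusted p = 0.725).

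The other 26 mitochondrial features of the reconstruction are models that overlap known genes and each other, 17 on the plus strand and 9 on the minus strand. Of these, 19 were called, 12 higher in HXB and 7 higher in BXH, with a median difference of 0.535 over all 26. Most run from position 68 at the start of the small ribosomal RNA. Those described next were chosen after their values were seen. PRN6.5G0229672, MT:68-3694 with 1563 exon bases, showed the largest difference of the 41 features. Levels in HXB ran from 15.444 over 16.263 to 16.638 and BXH strains from 9.596 over 10.047 to 12.087. The crosses did not overlap by strain or by animal, with a difference of 5.9 (SE 0.194, limma adjusted p = 1.86e-20). It was 5.83 with batch as a covariate and 6.83, 6.567 and 5.348 within batches 6, 7 and 10. Both progenitors were low for this model, SHR at 9.435 and BN-Lx at 11.307 (limma adjusted p = 0.0238 between them), so that HXB strains were unlike either.

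Of 4 other spanning models described here, 3 differed between the progenitors as between the crosses. PRN6.5G0229677, MT:68-6867, ranged from 11.809 over 12.459 to 12.938 in HXB and from 8.789 over 9.038 to 9.473 in BXH. All HXB animals lay above all BXH animals. The difference was 3.3 (SE 0.113, limma adjusted p = 2.22e-20) and 2.807, 3.569 and 4.126 within batches 6, 7 and 10, with SHR at 12.991 and BN-Lx at 9.195 (limma adjusted p = 0.00225 between them). The difference was 3.353 with batch as a covariate. PRN6.5G0229676 has the same ends, other exons and the opposite direction, at 10.735 ± 0.382 (SD, n = 20) in HXB and 12.636 ± 0.224 (SD, n = 10) in BXH, with SHR at 10.636 and BN-Lx at 12.582 (0.00443). Its difference was -1.901, and with batch as a covariate -2.086, and within batches 6, 7 and 10 it was -2.288, -2.457 and -1.511. PRN6.5G0229666, with 17 transcripts over MT:68-15278, was 2.285 higher in HXB (SE 0.096) and PRN6.5G0229675, over MT:68-16313, 0.879 lower (difference -0.879, SE 0.07). These were 2.3 and -1.002 with batch as a covariate, and within batches 6, 7 and 10 they were 2.464, 2.539 and 2.237 and -0.9, -1.115 and -0.593. SHR stood at 20.923 and BN-Lx at 18.662 for PRN6.5G0229666 (limma adjusted p = 0.00486), and at 18.562 and 19.385 for PRN6.5G0229675, where they did not pass the test (0.268). Of the 25 called mitochondrial features 22 had the sign of SHR against BN-Lx (88%), beside 436 of 750 called nuclear features (58.1%) and 46.9% of all features. Only 7 of the 25 passed between the progenitors, 6 with that sign and PRN6.5G0229672 with the opposite one. Of 20 called nuclear features that passed between the progenitors, 19 had that sign, so that this likeness was not particular to mitochondrial features. Called features thus ran in both directions among models with overlapping spans, which can differ in their exons. Whether reads were shared among overlapping models was not tested.

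**Figure D4:**
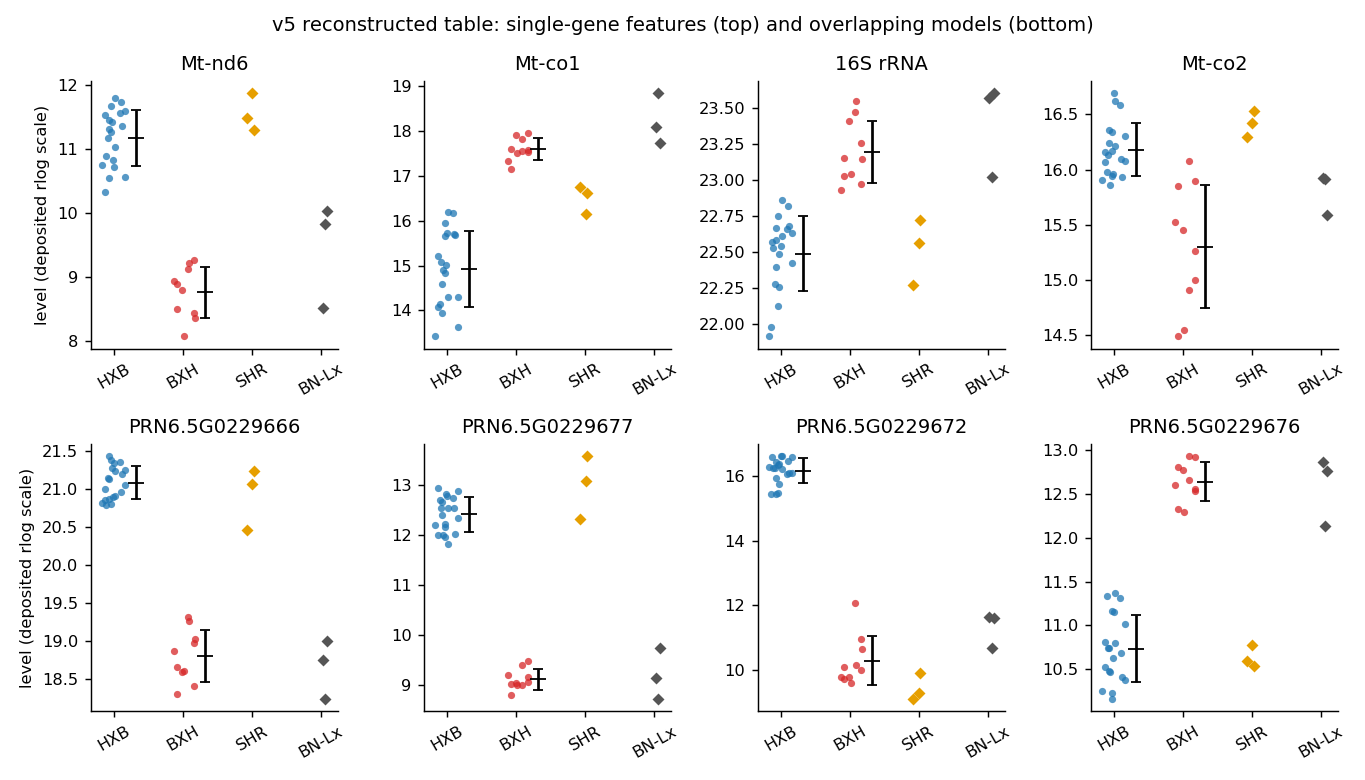
Levels (log2 units, vertical axes of different range) of 4 single-gene features (top) and 4 spanning models (bottom) of the version 5 reconstruction, with strain means of the 20 HXB and 10 BXH strains as circles, their mean and SD as bars, and progenitor animals as diamonds. Mt-co2 overlaps between the crosses and the other 7 do not, and for PRN6.5G0229672 the animals of SHR and BN-Lx lie near the BXH strains.

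Single libraries overlapped more often than strain means: of the 11 mitochondrial features whose strain means did not overlap, 3 did not overlap by animal, and Mt-nd6, Mt-co1 and the large ribosomal RNA overlapped. In the plot of levels by sequencing batch, PRN6.5G0229677 kept HXB libraries above BXH libraries in every batch that holds both, and the HXB and BXH libraries of Mt-nd6 met in batch 7. BXH libraries of Mt-nd6 were lowest in batch 3, which holds no HXB library.

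**Figure D5:**
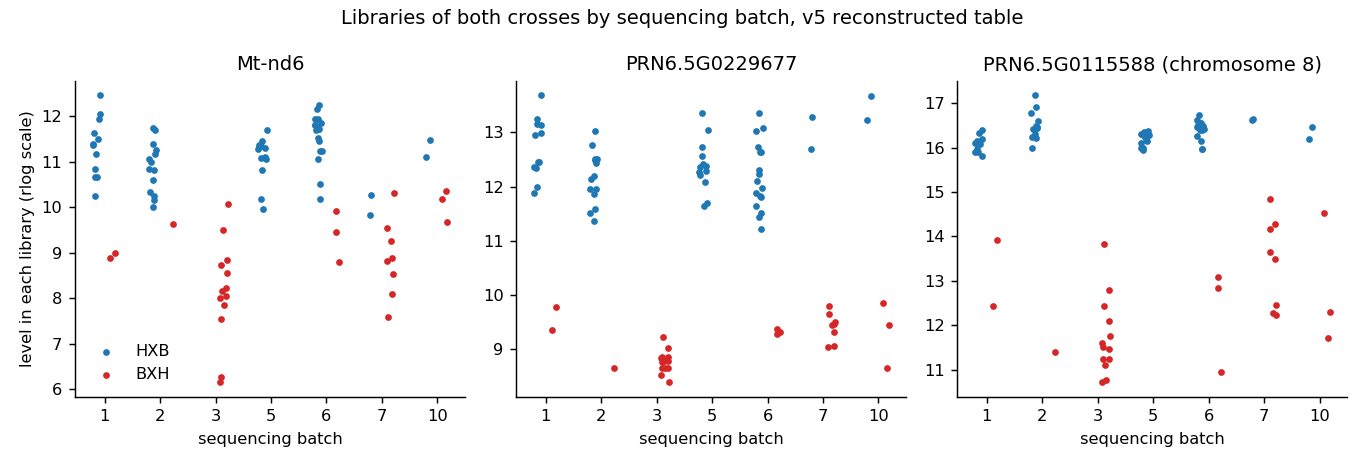
Levels (log2 units, vertical axes of different range) in single libraries of HXB (blue) and BXH (red) strains by sequencing batch (horizontal axis) in the version 5 reconstruction, for Mt-nd6, the spanning model PRN6.5G0229677 and PRN6.5G0115588 on chromosome 8. Batch 3 holds BXH libraries alone and batch 5 HXB libraries alone, and for PRN6.5G0115588 HXB libraries lie above BXH libraries in every batch that holds both.

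In the version 7.1 reconstruction 1 of 84239 features (0.00119%) was called, and it was also mitochondrial. PRN7.71G0261183 covers MT:68-7689 with 2707 exon bases. It spanned 18.958 over a median of 19.741 to 20.243 in HXB strains and ran in BXH strains from 15.581 over 17.735 to 18.261. The crosses did not overlap, and the difference was 2.228 (SE 0.2, limma adjusted p = 1.01e-07), with SHR at 19.495 and BN-Lx at 18.331 (0.337 between them). The difference was 3.913 with batch as a covariate, and within batches 6, 7 and 10 it was 3.91, 3.465 and 3.102. It was also the only feature of that table whose strain means did not overlap (0.00119%).

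Among 99335 nuclear features of the version 5 reconstruction 750 were called, 439 higher in HXB and 311 higher in BXH, 45 of them also with batch as a covariate and 4 also with batch shares of the strains. The share was 1.05% on the X chromosome (55 of 5243) and 0.739% on the autosomes (694 of 93931). The features named next were chosen after their values were seen. The start of chromosome 8 held a group of unnamed models: of 15 features between 100 and 300 kb, 5 were called, and all 5 were higher in HXB. PRN6.5G0115588 (chr8:156146-207802, plus strand) ranged from 16.053 over 16.296 to 16.618 in HXB and from 11.753 over 12.402 to 13.596 in BXH. No strain overlapped, the difference was 3.881 (limma adjusted p = 2.22e-20), and within batches 6, 7 and 10 it was 3.894, 3.203 and 3.476. The difference was 3.747 with batch as a covariate. SHR averaged 15.291 ± 0.421 (SD, n = 3) and BN-Lx 12.356 ± 1.199 (SD, n = 3).

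PRN6.5G0115595 (chr8:175127-182330) ranged from 8.364 over 9.159 to 11.293 in HXB and from 4.286 over 4.304 to 4.77 in BXH, a difference of 5.004 (limma adjusted p = 1.88e-15). BXH strains were uniformly low. The difference was 5.563 with batch as a covariate, and within batches 6, 7 and 10 it was 7.216, 6.832 and 6.199. PRN6.5G0115602, on the opposite strand at chr8:181237-188368, ranged from 12.626 to 14.12 in HXB and from 7.977 to 11.573 in BXH, a difference of 4.101 (limma adjusted p = 8.13e-13). The difference was 4.209 with batch as a covariate, and within batches 6, 7 and 10 it was 6.149, 5.98 and 2.47. Progenitor animals were spread widely for both models: for PRN6.5G0115595 the SHR animals stood at 8.809, 4.369 and 9.724 and the BN-Lx animals at 4.281, 6.472 and 6.889, and for PRN6.5G0115602 at 11.005, 7.231 and 11.136 and at 8.257, 11.175 and 13.71. For PRN6.5G0115602 all 3 SHR animals lay within the range of BXH animals (7.145 to 13.174) and below every HXB animal (12.095 to 15.096), the cross whose name places SHR first, and a BN-Lx animal lay within the HXB range. The progenitors did not pass the test for either model (limma adjusted p = 0.64 for PRN6.5G0115595 and 0.783 for PRN6.5G0115602).

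Dkc1, which encodes the dyskerin subunit of the box H/ACA and telomerase complexes, was the X-linked feature singled out (PRN6.5G0229390). Like those named for Klhl23 and Asic1 below, it is a reconstructed model, and no RefSeq gene was called between the crosses. HXB strains ranged from 3.105 over 5.622 to 5.991 and BXH strains from 2.493 over 2.821 to 3.819. Most HXB strains lay above all BXH strains, with overlap at the lowest. The difference was 2.369 (limma adjusted p = 7.24e-06), with batch as a covariate 2.897, with batch shares 2.226 (SE 0.537, adjusted p = 0.338), and within batches 6, 7 and 10 it was 3.453, 3.192 and 3.89, and HXB resembled BN-Lx (5.737) rather than SHR (2.639, limma adjusted p = 0.0136 between them). Klhl23 on chromosome 3, a kelch-family protein, averaged 6.187 ± 0.228 (SD, n = 20) and 5.192 ± 0.497 (SD, n = 10), with a difference of 0.996 (limma adjusted p = 2.28e-05), 1.193 with batch as a covariate and 1.574 with batch shares (adjusted p = 1.58e-05), but within batch 10 it was 0.131 lower in HXB (difference -0.131). The model named for Asic1, a proton-gated channel, averaged 3.188 ± 0.589 in HXB and 4.319 ± 0.275 in BXH (limma adjusted p = 0.00136). Its levels lay near the library medians, which ran from 3.5161 to 3.9781. Its difference was -1.13, and -0.912 with batch as a covariate (adjusted p = 0.126) and -0.846 with batch shares (0.905), and within batch 10 it was 0.264. Of 161 Y-linked features 1 was called (0.621%), a share below the 0.780% of all features. This feature, PRN6.5G0229707 at Y:1-1552, had means below the library medians in both crosses. Single HXB animals ran from 0.657 to 3.667 and BXH animals from 0.679 to 2.763. Strain means averaged 2.447 ± 0.45 and 1.431 ± 0.232 (limma adjusted p = 2.85e-04), a difference of 1.016. It was 1.464 with batch as a covariate (adjusted p = 0.00142) and 1.505 with batch shares (0.0951), and within batches 6, 7 and 10 it was 1.521, 1.631 and 2.181. BN-Lx stood at 2.08 and SHR at 1.331 for it, and the progenitors did not pass the test (limma adjusted p = 0.3 between them).

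The version 5 Ensembl table gave the largest share of calls, 2460 of 18309 genes (13.4%), with 1225 (6.69%) higher in HXB and 1235 (6.75%) higher in BXH. With batch as a covariate 1334 (7.29%) passed and with batch shares of the strains 6 (0.0328%). In 11 genes (0.0601%) the strain means did not overlap, among them Mt-nd6, Vps26b (-0.118) and, chosen after their values were seen, Insyn1, an inhibitory synapse protein (-0.209), Noa1, a mitochondrial GTPase (-0.166), and Hypk, a huntingtin-interacting protein (0.297). With batch as a covariate Insyn1, Noa1 and Hypk passed, at -0.204, -0.163 and 0.21. With batch shares they did not pass, at -0.136, -0.141 and 0.218 (adjusted p = 0.322, 0.251 and 0.316), nor did Vps26b at -0.138 (0.085). Without the 2 libraries of the version 5 Ensembl table nearer to another strain, 1865 genes were called. In version 6, 0 of 18644 genes (0%) were called by limma, 766 (4.11%) had an unadjusted p under 0.05 and 0 were called without its 2 such libraries. Of the 10 genes named by rank above, Dyrk1a (-0.192, limma adjusted p = 9.29e-06), Akirin2 (-0.178, 9.8e-06), Vps26b (1.11e-05), Pnrc1 (-0.161, 7.53e-05), Stmn4 (0.255, 2.72e-04), Fabp5 (0.36, 4.35e-04) and Rps25 (0.354, 0.0419) had the same direction in version 5, where they passed, as in version 7.1, whose libraries are largely the same. Fau (0.101, limma adjusted p = 0.0702) and Cd200 (-0.067, 0.111) had the same sign but did not pass there, and Slc25a15 was not matched to a gene of that table.

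Nuclear genes that serve the mitochondrion gave 0 calls on strain means. Of 37 nuclear subunits of complex I, 0 were called, 25 were higher in HXB and the median difference was 0.016, beside 0.0054 and 55.4% higher in HXB over all features. Ndufa13 averaged 10.835 ± 0.178 (SD, n = 20) and 10.681 ± 0.088 (SD, n = 10), and 5 of the 37 subunits had an unadjusted p under 0.05, all higher in HXB, beside 2.01% of all features in that direction. Of 43 subunits of complexes II to V, 37 were higher in HXB (median 0.023), with Uqcr10 of complex III at 0.172 and Atp5f1d of the ATP synthase at 0.15. Of 75 mitochondrial ribosomal proteins 52 were higher (median 0.02), and of 41 genes for upkeep of mitochondrial DNA and RNA 31 (median 0.016), including Lonp1, the matrix protease, at 0.1. Of 28 genes of mitochondrial biogenesis and stress 20 were higher (median 0.012). In the lists after complex I, in this order, members with an unadjusted limma p under 0.05 numbered 5, 5, 4 and 0 higher in HXB and 0, 0, 1 and 1 lower. With batch as a covariate the medians of these 5 lists were 0.037, 0.056, 0.046, 0.036 and 0.028, beside 0.0073 over all features, and 9 of the 224 members measured passed (4.02%), 7 higher in HXB and 2 lower, beside 1.67% of all features. Among those higher were Ndufa13 at 0.379 (adjusted p = 0.0261), Uqcr10 at 0.403 (0.0221) and Lonp1 at 0.216 (0.0449). With batch shares of the strains none of these 3 passed, at differences of 0.239, 0.167 and 0.147 (adjusted p = 0.834, 0.881 and 0.826).

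Markers of cell types and regions gave 0 calls as well. All 10 oligodendrocyte markers were higher in HXB, with a median of 0.062 and Mbp, a myelin protein, at 0.116. Neuron markers were higher in 3 of 10 (median -0.032), with Gad1, an enzyme of GABA synthesis, at -0.095. Blood markers were higher in 8 of 9 (median 0.129), and their mean level ranged from 9.229 to 10.544 over HXB strains and from 9.122 to 10.783 over BXH strains. Immediate early genes were higher in 1 of 12 (median -0.066), striatal markers in 0 of 8 (median -0.025), olfactory bulb markers in 1 of 8 (median -0.083) and cerebellar markers in 2 of 8 (median -0.053). The median was 0.018 for 8 astrocyte, 0.025 for 10 microglial, 0.029 for 10 endothelial and mural, 0.003 for 8 meningeal, 0.063 for 10 liver, 0.015 for 9 hindbrain Hox, 0.073 for 8 non-polyadenylated or nuclear, -0.015 for 10 choroid plexus and -0.012 for 5 pituitary markers. In bulk tissue fewer cells of a type and less RNA per cell cannot be told apart. With batch shares of the strains, 0 members of any list passed. With batch as a covariate 4 of these markers passed, beside 1.67% of all features. They were 2 of the 10 neuron markers, lower in HXB, and 2 of the 10 oligodendrocyte markers, higher. No list was tested as a set. In that fit the median was smaller in size for pituitary markers (-0.007) and larger for the other lists, at 0.364 for blood, 0.232 for hindbrain Hox genes, 0.149 for oligodendrocytes, 0.143 for liver, 0.162 for non-polyadenylated or nuclear RNAs, -0.149 for the olfactory bulb, -0.095 for choroid plexus and -0.073 for neurons. The part of dissection in these shifts was not tested.

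RefSeq genes called between the progenitors fell about evenly to either side between the crosses. Between BN-Lx and SHR, 124 autosomal RefSeq genes were called by limma, and of these 63 differed between the crosses in the direction of SHR for HXB, with a median ratio of the 2 differences of 0.004. On the X chromosome 3 were called between progenitors and 0 had an unadjusted p under 0.05 between the crosses.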

How the data were processed

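The authors deposited gene tables of rat whole-brain total RNA on a regularised log2 scale (RefSeq version 7.1, Ensembl versions 5 and 6) and 2 tables of reconstructed genes of the same kind, held here as a score because their highest deposited values are 72.601 and 117.518 (30.167 in the RefSeq table). By the study's methods, version 5 reads were aligned with HISAT2 to strain-specific rn6 genomes, assembled with StringTie under Ensembl guidance, quantified with RSEM, adjusted for 1 factor of unwanted variation and transformed. The submitters' processing notes name cutadapt 1.9.1, Bowtie2 2.3.4.3, HISAT2 2.1.0, StringTie 1.3.5 and RSEM 1.3.1. The separate steps of versions 6 and 7.1 are not given in the sources used here. Deposited transcript annotation, with no measured value, gave positions.

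Libraries of the same animal were averaged first, then animals within strains. HXB was compared with BXH in limma 3.58.1 (R 4.3.3, trended empirical Bayes), with Benjamini-Hochberg adjustment over all features but spike-ins and a threshold of 5%. Permutation tests over strains were two-sided with 100000 resamples. Alternative fits added sequencing batch, batch shares of the strains (chosen after seeing the data) or replicate number. Mitochondrial features were named where their ends matched an Ensembl gene. The rule for named genes took the mitochondrial and Y-linked features of the RefSeq table, the 5 smallest p values in each direction and the 2 largest differences of each list. Not every gene that the rule names is reported here, and others named were chosen after their values were seen. The members and lists were chosen with earlier results of these data known. Columns of other strains or of no sample, 358 in all, were not used. The fit of strain means was tested on simulated strain means without batches, and the fits with batch were not tested in this way. Depth per sample is unknown, so that the spread between strains is the measure of precision.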

Additional observations from a re-analysis of the deposited data

Results flagged for a closer look

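In 6 of the 68 sets of 10 BXH strain means examined (8.82%), a single strain stood apart from the other BXH strains by a gap that Dixon's test at 95% calls large. Chance flags about 1 in 20 such sets, and the 20 HXB strains were not examined this way. Each was in the version 5 reconstruction. BXH2 was the strain apart in 4 of them. For the mitochondrial model PRN6.5G0229679 BXH2 stood at 46.413 with the next strain at 11.035, which comes from a deposited value of 117.518 in 1 library, and the feature was not called. For PRN6.5G0229662, MT:68-2664, BXH2 was highest at 17.617 with the next at 16.25. For Mt-co3 (PRN6.5G0229698) BXH2 was lowest at 15.42 with the next at 16.31, and for PRN6.5G0115602 on chromosome 8 it was highest at 11.573 with the next at 9.819. BXH9 was highest for the minus-strand mitochondrial model PRN6.5G0229690, at 12.537 with the next at 12.047. BXH12 was highest for PRN6.5G0115595 on chromosome 8, at 4.77 with the next at 4.544.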

How the results depend on the processing

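The count of RefSeq genes called depended on the fit and the table. Against 0 in the fit of strain means, 349 were called with sequencing batch as a covariate, 292 with the batch number of the title and 2 with a replicate block. The same fit called 2460 in the version 5 Ensembl table, 775 in the version 5 reconstruction and 1 in the version 7.1 reconstruction, but 0 in version 6, and the cause was not tested. Replicate numbers did not pair the samples: deviations of same-numbered animals had a median correlation of 0.006, against -0.007 for other pairs.

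Against 25 of 41 mitochondrial features called, 16 were called with batch as a covariate (15 of the 25 and Mt-atp6), 16 with the title's batch, 10 with batch shares, 27 with the replicate block, 21 to 24 with an animal number left out, and 23 (without BXH10) to 26 (without BXH2) with a strain left out. The count was 0 of 2 in the RefSeq table and 0 of 15 in version 6. In the version 5 Ensembl table it was 4 of 18, beside 13.4% of all genes. In the version 7.1 reconstruction it was 1 of 21, beside 0.00119% of all features. With batch or the title's batch 14 X-linked features were called, and 13 and 10 list members, against 0. Without the trend 2 named genes differed between progenitors, against 1 (Hbb-bs).

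Among the 172 features followed through the alternatives, differences that passed the test changed sign within batches and under no other alternative. Within batch 7 they were 0.365 for PRN6.5G0229661, 0.195 for PRN6.5G0229665, -3.659 for PRN6.5G0229683, -0.005 for Mt-nd3 (PRN6.5G0229699) and -0.868 for PRN6.5G0229705. Within batch 6 PRN6.5G0229661 was at 0.643, and within batch 10 Klhl23 (PRN6.5G0051044) was at -0.131 and Asic1 (PRN6.5G0115040) at 0.264. Batches 6, 7 and 10 hold few strains of 1 cross, and depth is unknown.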
